A study of Mus musculus with 12 samples.

Results

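The genes of the cytosolic ribosomal proteins were examined in B16 cells, an established mouse melanoma line, in 12 libraries that form 4 groups of 3. Of 23336 gene rows in the deposited count table, 85 belonged to the set: symbols made of Rpl or Rps and a number, with or without a letter ending, together with Rpsa, Rplp0, Rplp1 and Rplp2. Genes of S6 kinases and rows named as pseudogenes fell outside this rule, and no measured value entered it. The set held 33 genes of the small ribosomal subunit and 52 of the large one, which includes several paralogs and the noncoding single-exon locus Rps4y2. The groups were Adar-null cells with interferon-beta (IFNb), Adar-null cells with vehicle, control cells with IFNb and control cells with vehicle. Adar-null cells, labelled Adar KO, came from Adar sgRNA 1 and control cells from Non-targeting sgRNA 5. Both had received a Cas9 plasmid by transient transfection and had then been subcloned, so genotype and subcloned population, with 1 guide for each, cannot be told apart. IFNb was given at 1000 U per mL for 36 h, and the vehicle was phosphate-buffered saline with albumin for the same time. The study asked how loss of Adar, an enzyme that turns adenosine into inosine in double-stranded RNA, alters the response to interferon.

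A cytosolic ribosome carries 1 copy of nearly every ribosomal protein, with the acidic stalk proteins Rplp1 and Rplp2 as the best known exception, and surplus ribosomal proteins are degraded in the nucleus. Their mRNAs begin, in most genes, with a cytosine followed by an unbroken run of pyrimidines, the 5' terminal oligopyrimidine (TOP) tract, through which mTOR signalling and the binding protein Larp1 set their translation and stability. Free Rpl5 and Rpl11 bind Mdm2, the ubiquitin ligase of p53, when ribosome assembly is disturbed.

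Each library held 5375649 to 7153480 counts, and 11561 genes passed the filter on low counts. Nothing in the labels places the 3 libraries of a group in separate cultures, and the p-values therefore rest on the spread between libraries that may be technical replicates. The targeted gene, Adar, was lower in vehicle libraries of Adar-null than of control cells (log2 ratio -0.28 ± 0.08, adjusted p = 0.0017) and was not called under IFNb (0.09 ± 0.05, adjusted p = 0.0817); a count over the whole gene does not check a small Cas9 deletion. Rn45s, the precursor of ribosomal RNA, took 25.8% to 28.5% of counts in Adar-null IFNb libraries, and 21.1% to 22.9% in Adar-null vehicle libraries. It took 24.9% to 25.3% in control IFNb libraries and 21.5% to 22.4% in control vehicle libraries. The libraries were made after depletion of ribosomal RNA, so these shares can include ribosomal RNA left over and need not measure the precursor. Markers of melanocytes were counted for 7 of 7 genes, summing to 10432 to 11147 CPM (counts scaled by library size and TMM factors) in Adar-null IFNb libraries, and 15254 to 15440 in Adar-null vehicle libraries. In control cells they summed to 13362 to 13660 CPM with IFNb and 15641 to 16469 CPM with vehicle. The 6 leukocyte markers in the table summed to at most 0.66 CPM in any library, and the 11 markers of fibroblasts, endothelium and epithelium to at most 7.92 CPM.

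Counts were spread very unevenly over the 85 genes. Over all 12 libraries, 14 genes averaged at least 100 CPM, 37 from 10 to under 100, 25 from 1 to under 10, and 9 less than 1 CPM. Among the highest genes were Rpl8 (mean 831 CPM), Rpl4 (559), Rplp0 (348) and Rps3 (286). In the ribosome, Rpl8 lies near the peptidyl transferase centre, Rpl4 along the exit tunnel, Rplp0 in the stalk that recruits elongation factors and Rps3 at the mRNA entry. Rpl26 and Rpl10l had no count in any library, which allows at most 0.157 to 0.173 CPM in a group (3 counts over its libraries, counting error only). Rpl26 is a universal subunit of the large subunit, whereas Rpl10l is a testis paralog of Rpl10. The genes Rpl30, Rpl34, Rpl36a, Rpl39l, Rpl3l, Rps27, Rps28 and Rps4y2 had counts but did not pass the filter, so 75 of the 85 were tested.

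Short reads cannot always be placed in genes that have near-identical copies, and 61 of the 85 genes have at least 1 pseudogene named after them in the GENCODE M21 annotation. The share of 37-base words (the read length) of each gene's principal transcript that occur in no other annotated gene was therefore set beside its level. Tested members had a median of 38.9% such words; the median was 50.3% in the 14 members at 100 CPM or more and 28.8% in those under 10 CPM. Rpl8 had 90.7% unique words, against 1.29% in Rps27, 1.98% in Rpl35 and 5.48% in Rpl5. Rpl26, with no count, had 25.3%, whereas Rps27, Rpl35 and Rpl5 had counts. The bound given for Rpl26 therefore concerns counts in this table and not its mRNA level, and the reason for its missing counts was not tested. Level per kilobase and uniqueness were weakly related over the 83 members with a count (Spearman's rho 0.24, across genes that share all libraries), and Rpl3l and Rpl39l, which are testis or muscle paralogs with nearly all words unique, were near 0. How reads with several placements were counted is not given in the sources used here, so levels of different members are not set against each other further, and a change in a member with few unique words can include reads of its copies.

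**Figure D1:**
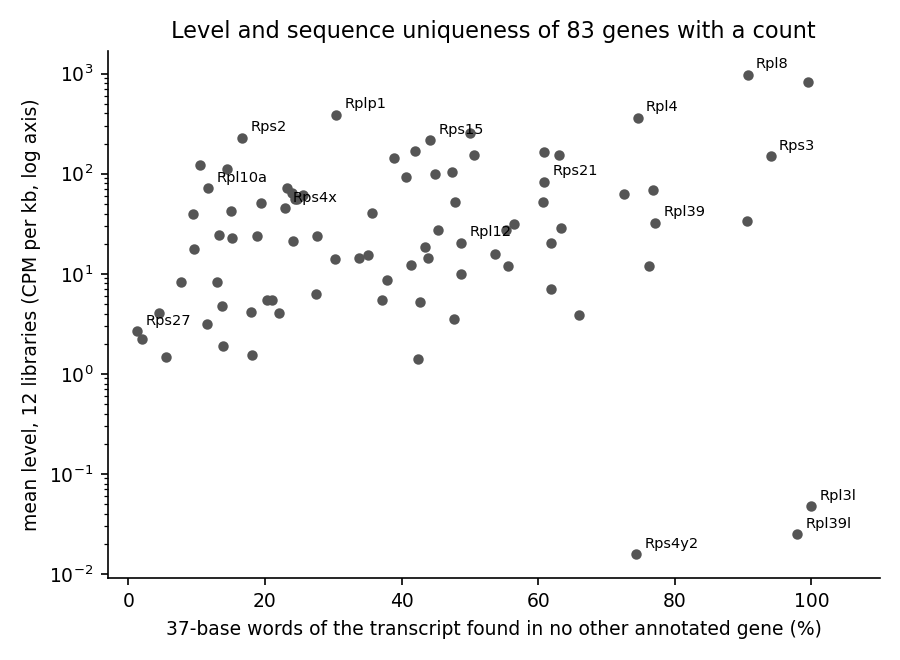
Mean level over the 12 libraries (vertical axis, CPM per kilobase of transcript, log scale) against the share of 37-base words found in no other annotated gene (horizontal axis, percent) for the 83 genes with a count; each point is a gene. Rpl8 lies at the upper right at 90.7% unique words, and Rps27 lies at the left at 1.29%.

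The starts of the transcripts show how far the TOP tract can be read from the annotation. RefSeq (GRCm38.p6) gives 76 starts for 64 of the 85 genes, and 16 of the 76 (21.1%) begin with an unbroken run of at least 5 C or T, against 4.44% of 32851 starts of all annotated genes. The windows printed here run from 10 bases before the annotated start to 20 bases from it, 5' to 3' on the strand of the gene, and capitals mark the run of C and T that opens at the first base. A second annotated start of Rps21, with a run of 1 base, is not printed. The first 5 windows carry a run of at least 5 and belong to genes described further on:
Rpl27a, chr7:109519185-109519214, plus strand: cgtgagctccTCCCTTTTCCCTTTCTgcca
Rps21, chr2:180257369-180257398, plus strand: aggacccgccCTCCTgcccaatagtgctgc
Rpl15, chr14:18270967-18270996, minus strand: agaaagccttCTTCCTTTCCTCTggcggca
Rpl14, chr9:120571507-120571536, plus strand: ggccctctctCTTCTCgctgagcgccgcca
Rps6, chr4:86857348-86857377, minus strand: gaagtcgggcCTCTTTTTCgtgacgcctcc

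The next 8 windows belong to further genes that moved strongly with IFNb in Adar-null cells, and have a run of 0 or 1 base at the annotated start, although pyrimidine stretches stand elsewhere in several of them:
Rpl12, chr2:32961702-32961731, plus strand: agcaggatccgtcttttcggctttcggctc
Rpl10a, chr17:28328461-28328490, plus strand: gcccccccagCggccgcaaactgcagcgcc
Rpl10a, chr17:28328555-28328584, plus strand: atttgagcgcatgcgcaaagcgctctgcct
Rps12, chr10:23787190-23787219, minus strand: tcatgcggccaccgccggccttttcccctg
Rpl39, chrX:37085203-37085232, minus strand: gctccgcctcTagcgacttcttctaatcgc
Rpl41, chr10:128549149-128549178, minus strand: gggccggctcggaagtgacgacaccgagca
Rps4x, chrX:102189372-102189401, minus strand: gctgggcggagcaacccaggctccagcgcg
Rps15, chr10:80292421-80292450, plus strand: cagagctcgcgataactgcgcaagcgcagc

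An annotated start can differ from the start used in these cells by a few bases, so the absence of a run says only that these letters are not at this position. In the 300 bases from 250 before to 50 after the start, searched on both strands, the ETS-type core CCGGAAG was found at 35.5% of the members' starts against 8.86% of all starts. The YY1-type core AAGATGGC stood at 10.5% against 2.75%, the E-box CACGTG at 10.5% against 7.15%, and a pair of GAAA units 2 bases apart, part of interferon-stimulated response elements, at 9.21% against 3.44%. These matches describe letters and were not tested as sites.

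Summed over the 85 genes, the ribosomal protein mRNAs took a smaller share of the libraries with IFNb than of those with vehicle, in both genotypes. The summed level was 4790, 5173 and 5171 CPM in Adar-null IFNb libraries and 6283, 6441 and 5968 CPM in Adar-null vehicle libraries. In control cells it was 4667, 4543 and 4905 CPM with IFNb and 5713, 5557 and 5610.0 CPM with vehicle. The IFNb libraries of each genotype lay below all its vehicle libraries, and under vehicle the Adar-null libraries lay above all control libraries, whereas under IFNb the genotypes overlapped. The group means gave log2 ratios of -0.30 for IFNb over vehicle in Adar-null cells and -0.26 in control cells, and of 0.10 under IFNb and 0.15 under vehicle for Adar-null over control cells. Scaled by library size alone, the IFNb ratios were -0.40 in Adar-null and -0.33 in control cells. The sum is given as a description, with no test, and CPM is relative to the other RNA of a library; in bulk RNA, fewer cells of a type and less RNA per cell cannot be told apart. The share of Rn45s and the melanocyte markers moved with IFNb as well, as given above, and their part in these differences was not tested.

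**Figure D2:**
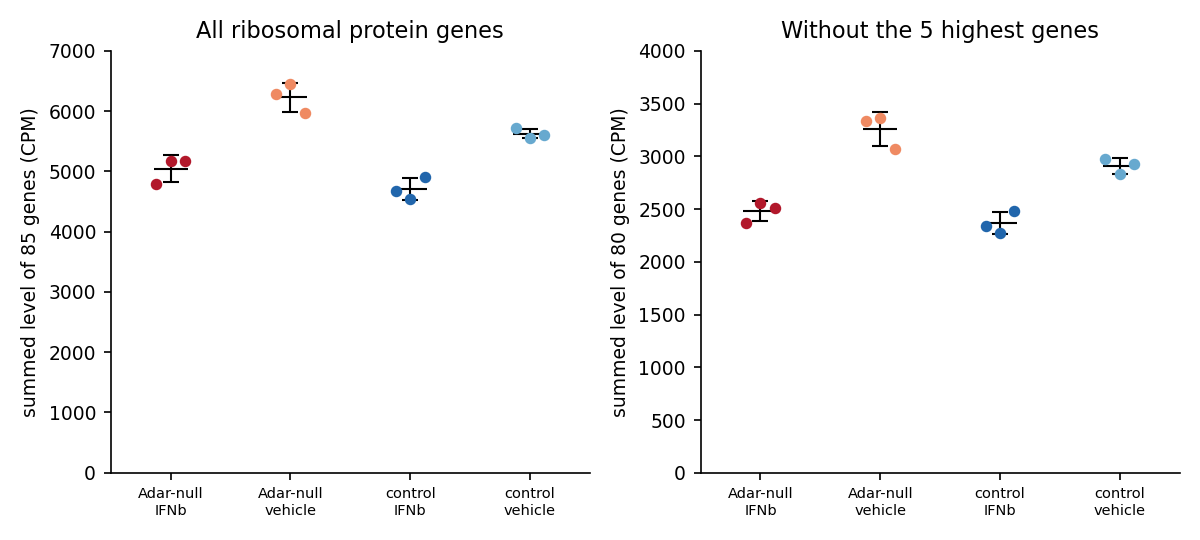
Summed level (CPM) of all 85 genes (left) and of the 80 genes without the 5 highest (right) by group; each point is a library, with the mean and SD of the 3 as a bar. The Adar-null vehicle libraries are highest in both panels, and the libraries with IFNb of both genotypes lie below those with vehicle.

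Under vehicle, before any cytokine, ribosomal protein mRNAs were slightly higher in Adar-null than in control cells, and none of the called differences reached 2-fold. Of 75 tested members 11 were higher and 0 lower (adjusted p under 0.05 by the edgeR quasi-likelihood test), while 2.47% of all genes were called higher and 4.05% lower (6.51% in all). At an unadjusted p under 0.05, 32 members were higher and 0 lower, and DESeq2 called 5 higher and 0 lower, limma-voom 12 and 0. The median log2 fold change was 0.19, against 0.00 for all 11561 genes, and 67 of the 75 values were above 0. The groups did not overlap in 26 members, against 22.3% of all genes.

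Among the 11 was Rpl4, with 656, 663 and 657 CPM in Adar-null vehicle libraries and 575, 557 and 574 CPM in control vehicle libraries (log2 fold change 0.21 ± 0.06, adjusted p = 5.17e-05). The 2 groups did not overlap in Rpl4, nor in Rpl14, a large-subunit protein, with 139, 138 and 134 CPM in Adar-null and 116, 98.3 and 125 CPM in control cells (0.28 ± 0.07, adjusted p = 0.00491). Rplp0 (0.19 ± 0.06, adjusted p = 0.00199) and Rps3 (0.21 ± 0.06, adjusted p = 0.000635) were higher to a like degree. Also higher was Rpl32, with 36.5 ± 6.63 CPM in Adar-null and 27.5 ± 4.47 CPM in control cells (SD, n = 3 each; 0.41 ± 0.11, adjusted p = 0.0141). Rps26, which lies at the mRNA exit (0.35 ± 0.12, adjusted p = 0.0495), was higher, as was Rps3a (0.27 ± 0.07, adjusted p = 0.00986). Rps20 (0.24 ± 0.06, adjusted p = 0.0081) and Rpl18 (0.25 ± 0.08, adjusted p = 0.0333) followed, and Rps15 and Rps9 completed the 11. Their number depended on single libraries: 4 members were higher without replicate 2 of the Adar-null or of the control vehicle libraries, 6 without replicate 1 of the Adar-null vehicle libraries, and 19 without its replicate 3. DESeq2 did not call Rpl32, Rps26, Rps3a or Rpl18 (adjusted p = 0.0851, 0.230, 0.0820 and 0.165).

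In control cells, mRNAs of ribosomal proteins of both subunits fell with IFNb by modest amounts. Of 75 tested members 36 fell and 7 rose, against 26.5% of all genes in each direction (53% in all), and the median log2 fold change was -0.26, against 0.00 for all genes. In the small subunit 17 of 30 fell and 3 rose, and in the large subunit 19 of 45 fell and 4 rose. Other genes with coding sequences under 500 bases had a median of -0.13 (277 of 866 fell and 132 rose). The 2 groups did not overlap in 39 members, against 57.6% of all genes. Only Rpl22l1 fell, and only Rps10 rose, by at least 2-fold, where 2.77% of all genes fell and 4.21% rose by that much.

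The largest falls among members at 10 CPM or more were those of Rps16, which contacts the peptidyl tRNA from the small subunit, and of Rps3a, on the platform of the small subunit. Rps16 had 22.4, 18 and 27.4 CPM in control IFNb libraries and 40.2, 36.6 and 39.2 CPM in control vehicle libraries (-0.78 ± 0.11, adjusted p = 6.98e-10). Rps3a had 33.8, 35.6 and 48.4 CPM with IFNb and 63.1, 61.2 and 61.0 CPM with vehicle (-0.65 ± 0.08, adjusted p = 3.40e-11). Neither gene overlapped between the groups. Rps2, a protein of the mRNA entry channel, fell to 169 ± 6.81 CPM with IFNb, against 258 ± 8.51 CPM with vehicle (SD, n = 3 each; -0.61 ± 0.06, adjusted p = 1.62e-20). Rpl22, an RNA-binding protein of the large subunit, fell to 58.9 ± 2.15 CPM with IFNb, against 87.0 ± 1.48 CPM with vehicle (-0.56 ± 0.07, adjusted p = 7.96e-13). Rps7, one of the ribosomal proteins that bind Mdm2 (-0.57 ± 0.20, adjusted p = 0.0207), and the stalk protein Rplp2 (-0.56 ± 0.11, adjusted p = 8.37e-06) fell similarly, and the call of Rps7 ended with limma-voom (adjusted p = 0.0641). Of the most abundant members, Rpl8 (-0.39 ± 0.06), Rps3 (-0.32 ± 0.06), Rpl4 (-0.29 ± 0.06) and Rplp0 (-0.19 ± 0.06) fell as well. Of the 7 rises, Rpl7l1 held under every alternative listed in the closing section. Rises numbered 3 with DESeq2 or with library size alone, 2 without control vehicle replicate 3, 3 without control vehicle replicate 2 or control IFNb replicate 3, and 4 without control IFNb replicate 1. Rps10, which stands at the mRNA entry and is ubiquitinated on collided ribosomes, averaged under 3 CPM in both groups (2.85, 2.15 and 1.55 CPM with IFNb and 1.41, 0.66 and 0.722 CPM with vehicle; 1.20 ± 0.48, adjusted p = 0.0204), has 4.55% unique words, and was not called by DESeq2 (adjusted p = 0.0542). Rpl27 had 15.1, 14.9 and 6.66 CPM with IFNb and 7.91, 8.25 and 7.58 CPM with vehicle (0.62 ± 0.21, adjusted p = 0.0115), so that 1 IFNb library lay below all vehicle libraries. The call of Rpl27 ended with limma-voom (adjusted p = 0.0944) and without control IFNb replicate 1, control IFNb replicate 2 or control vehicle replicate 3 (adjusted p = 0.0682, 0.0949 and 0.0524).

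In Adar-null cells, most ribosomal protein mRNAs fell with IFNb, 8 of them by at least 2-fold, while 8 others rose. Of 75 tested members 43 fell and 8 rose, against 35.7% of all genes that fell and 36.6% that rose (72.3% in all). The median log2 fold change was -0.35, against 0.01 for all genes. In the small subunit 21 of 30 fell and 3 rose, and in the large subunit 22 of 45 fell and 5 rose. Falls of at least 2-fold were seen in 8 members and rises of that size in 3, against 11.7% and 9.33% of all genes. The groups did not overlap in 53 members, against 73.7% of all genes. Members with at least 50% of their words unique had 18 falls and 3 rises among 23 and a median of -0.59, a subset chosen after the data were seen.

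Rpl39, a small protein that lines the end of the peptide exit tunnel, fell the furthest. It had 5.87, 8.87 and 6.96 CPM in Adar-null IFNb libraries and 31.9, 31.3 and 28.0 CPM in Adar-null vehicle libraries, and the groups lay far apart (-2.05 ± 0.16, adjusted p = 1.16e-23). Rps21, a small-subunit protein needed late in its maturation, had 12.1, 12.3 and 15.2 CPM with IFNb and 50.7, 47.6 and 37.3 CPM with vehicle (-1.77 ± 0.13, adjusted p = 6.43e-20). Again every IFNb library lay below every vehicle library. Rps4x, encoded on the X chromosome, had 21, 20.6 and 21.4 CPM with IFNb and 61.7, 59.2 and 58.5 CPM with vehicle (-1.51 ± 0.09, adjusted p = 5.59e-32). Rpl41, the shortest of the ribosomal proteins, had 30.3, 33.4 and 29.6 CPM with IFNb and 93.9, 90.0 and 72.7 CPM with vehicle (-1.46 ± 0.09, adjusted p = 6.06e-22). Rps15, whose tail reaches the decoding centre, had 54.4, 57.4 and 60.3 CPM with IFNb and 150.1, 145 and 137 CPM with vehicle (-1.33 ± 0.06, adjusted p = 2.29e-41). In all of these 5 genes the spread within a group was smaller than the gap between the groups. Rpl27a, whose start carries the run of 16 pyrimidines printed above, fell to 17.7 ± 0.956 CPM with IFNb, against 42.2 ± 1.38 CPM with vehicle (SD, n = 3 each; -1.25 ± 0.11, adjusted p = 5.66e-22). Among members under 10 CPM, Rpl37a fell to 3.62 ± 0.171 CPM, against 9.12 ± 0.497 CPM with vehicle (-1.33 ± 0.23, adjusted p = 2.71e-08). Rps29, a zinc-binding protein of the small-subunit head, fell to 1.65 ± 0.0615 CPM, against 3.69 ± 0.0801 CPM (-1.16 ± 0.34, adjusted p = 0.00103). Over the 75 members, coding length and log2 fold change had a Spearman's rho of 0.15 (across genes that share all libraries). Other genes with coding sequences under 500 bases had a median of -0.28 (422 of 866 fell and 167 rose).

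The rises were led by 2 proteins of the lateral stalks of the large subunit. Rpl12, at the base of the acidic stalk, had 50.2, 64.8 and 66.1 CPM in Adar-null IFNb libraries and 18.5, 17.9 and 12.8 CPM in Adar-null vehicle libraries (1.87 ± 0.11, adjusted p = 3.54e-27). Rpl10a, the protein of the L1 stalk beside the exit site of tRNA, had 102, 109 and 114 CPM with IFNb and 40.3, 41.0 and 35.1 CPM with vehicle (1.47 ± 0.07, adjusted p = 1.28e-38). In both genes the lowest IFNb library was above 2 times the highest vehicle library. Rps12, in the beak of the small subunit, had 13.1, 18.5 and 13.0 CPM with IFNb and 7.54, 8.42 and 6.06 CPM with vehicle (1.01 ± 0.17, adjusted p = 6.58e-08). Rpl3, next to the peptidyl transferase centre, had 51.1, 46.0 and 41.4 CPM with IFNb and 32.9, 28.7 and 28.7 CPM with vehicle (0.61 ± 0.10, adjusted p = 1.14e-08). Neither Rps12 nor Rpl3 overlapped between the groups. Smaller rises were found in Rpl36 (0.44 ± 0.13, adjusted p = 0.00175), Rps27l and Rpl7l1, among others. Unique words were 48.8% of the transcript in Rpl12, 11.7% in Rpl10a, 9.61% in Rps12, 13.3% in Rpl3 and 9.51% in Rpl36, so reads of copies can enter these counts. On GRCm38, Rpl12 (chr2:32961559-32965345, plus strand) overlaps Lrsam1 on the other strand, and whether counting used the strand is not given in the sources used here. Lrsam1 rose as well, with 30.3, 27.4 and 28.3 CPM with IFNb and 20.4, 20.02 and 19.8 CPM with vehicle (0.51 ± 0.11, adjusted p = 2.32e-05). Rpl3 (chr15:80077791-80091868, minus strand) overlaps Syngr1, which fell (-0.89 ± 0.06, adjusted p = 9.73e-32), and Rpl10a (chr17:28328471-28331033, plus strand) overlaps an antisense transcript at its promoter. Rps2 and Rpl32 share sequence in the same way with Snhg9 and Cand2. As background, the orthologs of Rpl3, Rpl10a and Rpl12 in Caenorhabditis elegans, and human RPL3 and RPL12, are known to make unproductively spliced transcripts that their own proteins induce; counts per gene do not separate such transcripts.

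**Figure D3:**
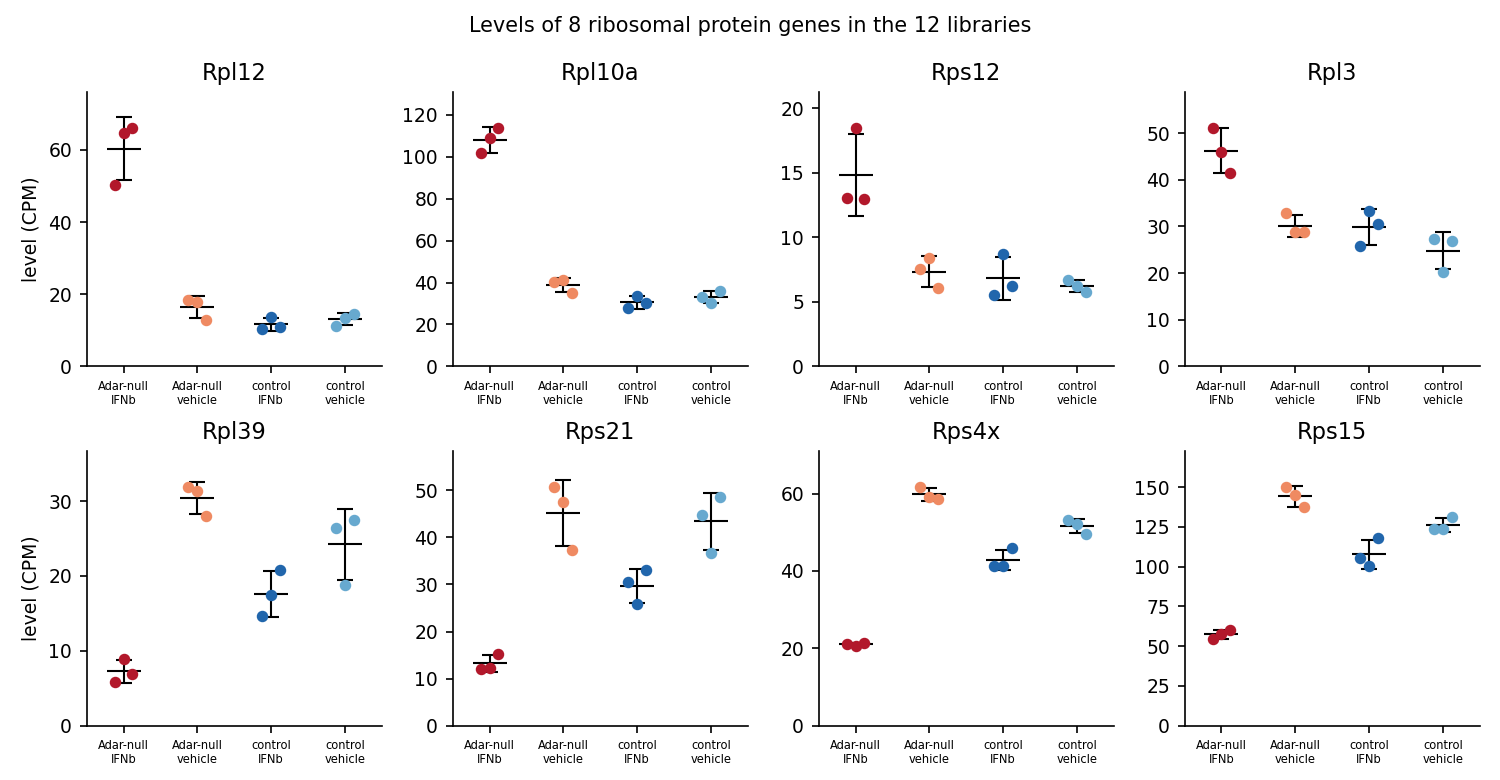
Level (CPM) of 8 ribosomal protein genes by group, each panel on its own axis from 0; each point is a library, with the mean and SD of the 3 as a bar. The top row shows Rpl12, Rpl10a, Rps12 and Rpl3, highest in Adar-null IFNb libraries, and the lower row Rpl39, Rps21, Rps4x and Rps15, lowest in those libraries.

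Between the genotypes the responses were compared in 2 ways, by the calls in each genotype and by the difference of the responses itself. Of the 75 members, 32 fell in both genotypes, against 14.5% of all genes, and 4 rose in both, Rpl3, Rpl7l1 and Rps27l among them. The place of Rpl3 here rests on a weak call in control cells (0.28, edgeR adjusted p = 0.0205). DESeq2 did not make this call (adjusted p = 0.0705), nor did edgeR scaled by library size alone (adjusted p = 0.115). Dropping some single control libraries removed it too, at adjusted p from 0.0527 to 0.282. Those that rose in both were 5.33% of the members, against 14.9% of all genes. A further 11 (14.7%) fell in Adar-null cells with no call in control cells, a share like the 14.8% of all genes. Rpl10a, Rpl12, Rpl36 and Rps12 (5.33%) rose in Adar-null cells with no call in control cells, against 15.8% of all genes. In control cells alone 7 were called (9.33%, against 11.3% of all genes), and 17 were called in neither (22.7%, against 16.3%). By these edgeR calls 0 members moved in opposite directions, against 12.4% of all genes. The difference, taken as the log2 response in Adar-null less the one in control cells, was called in 28 members, 8 of them above 0 and 20 below, against 28.6% and 30.7% of all genes (59.3% in all). It reached 2-fold above 0 in 2 members and below 0 in 7, against 7.86% and 11.7% of all genes. Its median over the members was -0.15, against 0.01 for all genes. Other genes with coding sequences under 500 bases had a median difference of -0.17, called below 0 in 321 of 866 and above 0 in 167.

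Above 0 the difference was largest for Rpl12 (2.02 ± 0.19, adjusted p = 2.81e-15) and Rpl10a (1.58 ± 0.12, adjusted p = 2.33e-23). In control cells Rpl12 had 10.5, 13.7 and 10.8 CPM with IFNb and 11.2, 13.4 and 14.6 CPM with vehicle, and Rpl10a had 27.8, 33.6 and 30.2 CPM with IFNb and 33.2, 30.2 and 35.8 CPM with vehicle. The control groups of both genes overlapped and neither was called (-0.15 ± 0.16, adjusted p = 0.444 and -0.10 ± 0.09, adjusted p = 0.366). Rps12 (0.86 ± 0.27, adjusted p = 0.00379), Rpl36 (0.50 ± 0.20, adjusted p = 0.0236) and Rpl3 (0.33 ± 0.14, adjusted p = 0.0423) were called as well. The call of Rpl36 ended with DESeq2 (adjusted p = 0.0759), and that of Rpl3 with DESeq2, limma-voom, a stricter filter or library size alone (adjusted p = 0.101, 0.0528, 0.0536 and 0.0701). Only 4 members were above 0 with DESeq2, and 5 without Adar-null IFNb replicate 2, Adar-null vehicle replicate 3 or control vehicle replicate 3. Below 0 stood Rpl39 (-1.61 ± 0.20, adjusted p = 1.51e-11), Rps4x (-1.24 ± 0.12, adjusted p = 6.37e-17), Rpl37a (-1.24 ± 0.30, adjusted p = 0.000169) and Rps21 (-1.23 ± 0.17, adjusted p = 2.91e-09). Rpl41 (-1.14 ± 0.12, adjusted p = 2.65e-12) and Rps15 (-1.10 ± 0.09, adjusted p = 1.08e-23) completed the 6 lowest. In control cells Rpl39 had 14.6, 17.4 and 20.8 CPM with IFNb and 26.4, 18.8 and 27.4 CPM with vehicle (-0.44 ± 0.13, adjusted p = 0.00187), with 1 vehicle library inside the range of the IFNb libraries. Rps15 had 106, 100.3 and 118 CPM with IFNb and 124, 124 and 131 CPM with vehicle there (-0.23 ± 0.06, adjusted p = 0.000284), without overlap. The plot of the responses shows these genes well off the diagonal, on either side of a cloud in which both responses are mildly negative.

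**Figure D4:**
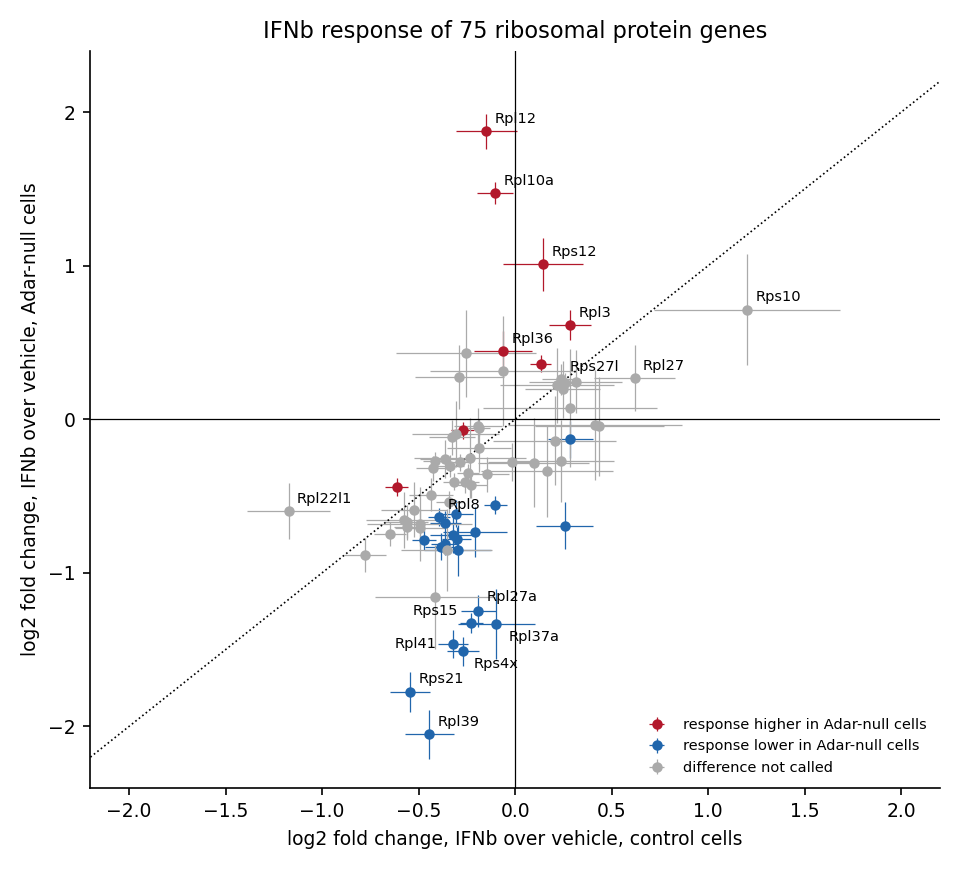
Log2 fold change of IFNb over vehicle in Adar-null cells (vertical axis) against that in control cells (horizontal axis) for the 75 tested genes; bars are standard errors, the dotted line marks equal responses, and colours give the call of the difference. Rpl12 and Rpl10a stand at the top near 0 on the horizontal axis, and Rpl39 and Rps21 at the bottom.

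Under IFNb, Adar-null and control cells differed in both directions. Of 75 members 21 were higher and 16 lower in Adar-null cells, against 36.4% and 36.2% of all genes (72.6% in all). The median log2 difference was 0.08, against 0.02. That median was -0.058 with a stricter filter on low counts and -0.11 over the members with at least 50% unique words, so its direction depended on these choices; the second was made after the data were seen. The groups did not overlap in 31 members, against 74% of all genes, and 4 were higher and 3 lower by at least 2-fold, against 8.75% and 12.6%. This comparison shares its libraries with the ones above. Rpl12 averaged 60.4 ± 8.84 CPM in Adar-null and 11.7 ± 1.77 CPM in control IFNb libraries (SD, n = 3 each; 2.36 ± 0.13, adjusted p = 1.29e-31), and Rpl10a 108 ± 6.15 and 30.5 ± 2.93 CPM (1.82 ± 0.08, adjusted p = 3.77e-45). Rpl36 (0.69 ± 0.14, adjusted p = 2.72e-06), Rpl3 (0.61 ± 0.10, adjusted p = 1.16e-08), Rplp1 (0.41 ± 0.12, adjusted p = 0.0109) and Rps20 (0.38 ± 0.06, adjusted p = 7.66e-07) were higher by smaller amounts. Of the members under 10 CPM, Rpl24, a protein of the bridge between the subunits, had 4.55, 3.61 and 4.27 CPM in Adar-null and 1.96, 1.86 and 1.86 CPM in control IFNb libraries (1.11 ± 0.32, adjusted p = 0.000876). Rps12 was higher too (1.11 ± 0.17, adjusted p = 5.46e-09). The lower genes were Rpl39 (-1.27 ± 0.17, adjusted p = 2.35e-11), Rps21 (-1.16 ± 0.14, adjusted p = 1.32e-11), Rps4x (-1.03 ± 0.10, adjusted p = 1.05e-18) and Rpl41 (-0.96 ± 0.09, adjusted p = 9.39e-14). Rpl27a (-0.95 ± 0.11, adjusted p = 1.76e-14), Rps15 (-0.91 ± 0.07, adjusted p = 1.75e-26) and Rpl37a (-0.89 ± 0.23, adjusted p = 0.000325) were lower as well.

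The acidic stalk proteins and the abundant members Rpl8 and Rpl4 did not reach 2-fold changes. Rplp0, the scaffold of the stalk, had 349, 384 and 380.3 CPM in Adar-null IFNb, 385, 395 and 377 CPM in Adar-null vehicle, 298, 286 and 309 CPM in control IFNb and 328, 351 and 339 CPM in control vehicle libraries. The response to IFNb was not called in Adar-null cells (-0.06 ± 0.06, adjusted p = 0.238), where scaling by library size alone gave -0.15 (adjusted p = 0.00177). The difference between the responses missed the threshold (0.13 ± 0.08, adjusted p = 0.0582) but passed it with limma-voom and with upper-quartile scaling (adjusted p = 0.0406 and 0.0156). Rplp1 was likewise not called in Adar-null cells (-0.12 ± 0.11, adjusted p = 0.376), but leaving out Adar-null vehicle replicate 3 gave -0.23 (adjusted p = 0.000625). It was lower with IFNb in control cells (-0.33 ± 0.12, adjusted p = 0.0432), a call that ended with a replicate block (adjusted p = 0.0765), without any 1 of the 3 control vehicle libraries, and without control IFNb replicate 1 or 2 or Adar-null IFNb replicate 3 (adjusted p from 0.0687 to 0.115 over these 6 libraries). Rplp2, the partner of Rplp1, fell with IFNb in Adar-null cells (-0.67 ± 0.11, adjusted p = 1.33e-07). Rpl8 had 587, 646 and 696 CPM in Adar-null IFNb and 1009.6, 1026 and 966 CPM in Adar-null vehicle libraries (-0.64 ± 0.06, adjusted p = 2.70e-28). It had 735, 716 and 726 CPM in control IFNb and 975, 941 and 944 CPM in control vehicle libraries (-0.39 ± 0.06, adjusted p = 1.34e-15). The responses of Rpl8 differed between genotypes by -0.24 ± 0.08, adjusted p = 9.09e-05, whereas those of Rpl4 did not pass the test (0.00 ± 0.08, adjusted p = 0.962).

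Paralogs take the place of ribosomal proteins in some tissues or have further roles, and 4 of those in the set were tested. Rpl22l1, which mouse Rpl22 is known to repress, had 3.74, 3.86 and 4.49 CPM in control IFNb and 9.14, 9.24 and 9.03 CPM in control vehicle libraries, far apart (-1.17 ± 0.21, adjusted p = 6.25e-07). In Adar-null cells it had 6.06, 8.12 and 6.64 CPM with IFNb and 12.5, 9.66 and 9.80 CPM with vehicle (-0.60 ± 0.18, adjusted p = 0.00184), and the difference between the responses did not pass the test (0.58 ± 0.28, adjusted p = 0.0659). Rpl22 itself fell in both genotypes (-0.70 ± 0.07 in Adar-null and -0.56 ± 0.07 in control cells). Rps27l, a p53 target and paralog of Rps27, rose in Adar-null (0.26 ± 0.10, adjusted p = 0.0144) and in control cells (0.24 ± 0.10, adjusted p = 0.0304). The second call ended with DESeq2 (adjusted p = 0.0798), and both ended with library size alone (adjusted p = 0.120 and 0.152). The control call of Rps27l also ended with upper-quartile scaling (adjusted p = 0.0596). It ended as well without control IFNb replicate 1 or 3 or control vehicle replicate 2 or 3 (adjusted p from 0.0502 to 0.129). Its Adar-null call ended without Adar-null IFNb replicate 1 or 2 or Adar-null vehicle replicate 2 (adjusted p from 0.0564 to 0.0969). Rpl7l1, a paralog of Rpl7 with 76.8% unique words, rose in Adar-null (0.24 ± 0.06, adjusted p = 0.000305) and in control cells (0.26 ± 0.06, adjusted p = 0.000158). Rpl7 fell in Adar-null cells (-0.56 ± 0.06, adjusted p = 8.68e-16). Rpl36al rose in control cells (0.29 ± 0.12, adjusted p = 0.0293) and was not called in Adar-null cells (-0.13 ± 0.12, adjusted p = 0.321). Its responses differed by -0.42 ± 0.17, adjusted p = 0.0241, and DESeq2 called neither the rise nor the difference (adjusted p = 0.0855 and 0.0704). Outside the name rule, Gnb2l1 (Rack1), the scaffold at the head of the small subunit, lay between 964 and 1162 CPM in all 12 libraries and was not called with IFNb in Adar-null cells (0.02 ± 0.06, adjusted p = 0.591). It fell slightly in control cells (-0.10 ± 0.06, adjusted p = 0.0173), a call that ended without control IFNb replicate 2, control IFNb replicate 3 or control vehicle replicate 2 (adjusted p = 0.0873, 0.0709 and 0.0655). Trim41 overlaps Gnb2l1 on the other strand, and its responses differed between genotypes (0.45 ± 0.10, adjusted p = 8.15e-05). Fau, a fusion of a ubiquitin-like and a small-subunit protein, did not pass the test in any comparison.

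Members were also divided by whether the annotated start opens with a pyrimidine run. Of 15 tested members with a run of at least 5, 9 fell and 0 rose with IFNb in Adar-null cells, with a median of -0.30, where 35.7% of all genes fell and 36.6% rose. Of 41 with an annotated start and no run of at least 5, 22 fell and 5 rose, with a median of -0.34. This second set keeps starts with shorter runs, such as 4 bases in Rpl13, and is not a set of genes without a TOP tract. In control cells the medians were -0.26 with a run and -0.27 without. For the difference between the responses they were -0.26 with a run and -0.10 without. For Adar-null over control cells they were 0.00 with a run and 0.12 without under IFNb, and 0.12 and 0.21 under vehicle. Rps6, the substrate of S6 kinase, starts with a run of 9 and was not called with IFNb in Adar-null (-0.04 ± 0.12, adjusted p = 0.76) or control cells (-0.19 ± 0.12, adjusted p = 0.191), while Rpl15 with a run of 13 fell in both (-0.83 ± 0.09 in Adar-null and -0.38 ± 0.08 in control cells). The difference between the sets was not tested.

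Other genes with known TOP mRNAs, mainly translation factors, also fell more often than they rose with IFNb. Of 23 tested, 17 fell and 1 rose with IFNb in Adar-null cells (median -0.48), and 11 fell and 3 rose in control cells (median -0.22). Of all genes, 35.7% fell and 36.6% rose in Adar-null cells, and 26.5% moved in each direction in control cells. Eef1a1, the elongation factor that delivers tRNA, averaged 1955 ± 110.4 CPM in Adar-null IFNb and 4241 ± 59.0 CPM in Adar-null vehicle libraries (-1.12 ± 0.06). It averaged 3104 ± 39.7 CPM in control IFNb and 3970.4 ± 63.6 CPM in control vehicle libraries (-0.36 ± 0.06). Nap1l1 (-1.54 ± 0.07), a histone chaperone, and Vim (-0.98 ± 0.06), an intermediate filament protein, fell in Adar-null cells, and Gas5, a noncoding host of small nucleolar RNAs, rose (0.90 ± 0.15). In control cells the largest changes called were those of Pabpc1 (-0.57 ± 0.06), Tpt1 (-0.56 ± 0.10), Eif4b (-0.42 ± 0.06) and Nap1l1 (-0.42 ± 0.06), which fell, while Vim rose (0.37 ± 0.06). Under vehicle, 3 of the 23 were higher and 0 lower in Adar-null cells (edgeR; 0 lower also at an unadjusted p under 0.05), with a median of 0.10. Mitochondrial ribosomal proteins, whose mRNAs have no TOP tract, moved evenly in both directions: 20 of 74 rose and 20 fell in Adar-null cells (median -0.02), and 17 rose and 19 fell in control cells (median 0.01).

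**Figure D5:**
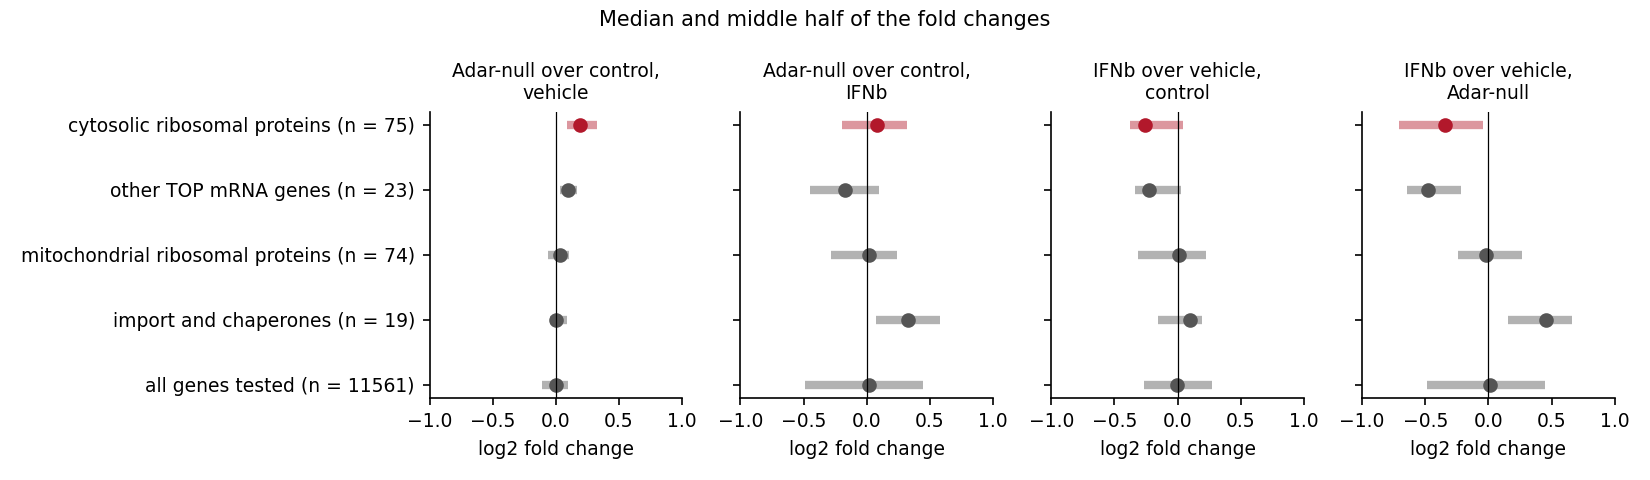
Median (point) and interquartile range (bar) of the log2 fold changes in 4 comparisons for the 75 cytosolic ribosomal protein genes and for other lists, with the number of tested genes in brackets. With IFNb in Adar-null cells (right panel) the median is -0.35 for cytosolic ribosomal proteins, -0.48 for other TOP genes, -0.02 for mitochondrial ribosomal proteins and 0.46 for import and chaperones.

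Genes that escort ribosomal proteins rose more often than they fell in Adar-null cells. Of 19 importins, dedicated chaperones and assembly factors, 13 rose and 3 fell with IFNb in Adar-null cells (median 0.46), and 6 rose and 4 fell in control cells (median 0.10). These counts, and those of the lists that follow, stand beside 36.6% of all genes that rose and 35.7% that fell in Adar-null cells, and 26.5% in each direction in control cells. Lsg1 (1.24 ± 0.08), Sbds (1.22 ± 0.12), which acts in the last steps of large-subunit maturation, and Grwd1 (1.19 ± 0.10), the chaperone of Rpl3, rose in Adar-null cells, whereas the importin Ipo5 fell (-0.79 ± 0.06). In control cells Grwd1 (1.03 ± 0.11) and Lsg1 (0.76 ± 0.09) rose, and Pdcd2l (-0.56 ± 0.12) and Pdcd2 (-0.41 ± 0.12), a chaperone of Rps2, fell. Of 16 regulators of TOP mRNAs and of ribosome level, 8 rose and 3 fell in Adar-null cells, and 4 rose and 6 fell in control cells. Eif4ebp1, a translation repressor under mTOR, averaged 204 ± 6.0 CPM in Adar-null IFNb and 216 ± 15.7 CPM in Adar-null vehicle libraries (-0.09 ± 0.05, adjusted p = 0.0997). It averaged 53.4 ± 2.18 CPM in control IFNb and 215 ± 2.37 CPM in control vehicle libraries (-2.01 ± 0.07, adjusted p = 4.23e-61). Eif4ebp2 fell in Adar-null (-1.48 ± 0.06) and in control cells (-0.49 ± 0.06), and Larp1b (1.60 ± 0.17), a relative of Larp1, rose in Adar-null and fell in control cells (-0.78 ± 0.20); Myc fell in Adar-null cells (-0.96 ± 0.06). Zfp598, the sensor of collided ribosomes, rose in Adar-null (0.58 ± 0.05) and fell in control cells (-0.41 ± 0.06). Of 9 transcription factors of ribosomal protein promoters, 3 rose and 2 fell in Adar-null cells, with Nrf1 (-0.63 ± 0.08) and Yy1 (0.35 ± 0.06) moving most. In control cells 6 fell, led by Tbpl1 (-1.04 ± 0.08), and Zbtb7a rose (0.60 ± 0.07).

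The p53 pathway genes of the ribosomal protein and Mdm2 checkpoint rose with IFNb in Adar-null cells. Of 5 genes, 5 rose in Adar-null cells and 4 rose and 1 fell in control cells. Mdm2 averaged 215 ± 7.56 CPM in Adar-null IFNb and 68.2 ± 3.54 CPM in Adar-null vehicle libraries (1.66 ± 0.06, adjusted p = 2.93e-55). In control cells it averaged 88.8 ± 1.86 CPM in control IFNb and 67.9 ± 2.09 CPM in control vehicle libraries (0.39 ± 0.07, adjusted p = 2.98e-08). Cdkn1a, the p53-induced cell cycle inhibitor, rose in Adar-null (3.48 ± 0.06) and control cells (2.56 ± 0.06), as did Ccng1 (1.78 ± 0.06 and 1.43 ± 0.06) and Trp53 (0.97 ± 0.06 and 0.31 ± 0.07). Rpl11 had 3.98, 4.96 and 3.01 CPM in Adar-null IFNb and 6.68, 6.49 and 6.06 CPM in Adar-null vehicle libraries (-0.68 ± 0.24, adjusted p = 0.00768). Rpl5 had 3.41, 2.41 and 3.16 CPM with IFNb and 4.97, 3.31 and 3.03 CPM with vehicle there (-0.34 ± 0.30, adjusted p = 0.307), with groups that overlap and 5.48% unique words, and was not called.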

How the data were processed

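RNA of 12 libraries was read as paired 37-base reads after depletion of ribosomal RNA. The deposited values are whole-number counts per gene, made by the authors with bcl2fastq 2.19.1, Trimmomatic 0.33, Bowtie2 2.2.4 and HTSeq 0.6.1p1 on mm10, per the submitters' processing notes, which also list DESeq2. The annotation, the strand setting and the handling of reads with several placements were not given in the sources used here. Libraries treated with IFNg were not analysed here.

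From these counts, 1 model over all 12 libraries was fitted with edgeR 4.0.16 in R 4.3.3 (filterByExpr, TMM scaling, robust quasi-likelihood fit, 8 residual degrees of freedom), and p-values were adjusted by Benjamini-Hochberg over 11561 genes, with 0.05 as the threshold for a call. A log2 fold change is given with its standard error, never set below counting error, a CPM value with its SD over 3 libraries, and totals of 5375649 to 7153480 counts limit the precision of members at a few CPM. The procedure was tested on simulated data. Alternatives were other scalings and filters, DESeq2 1.42.0, limma-voom (limma 3.58.1), a stricter threshold of 0.01, a replicate block and leaving out each library.

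Members named with values are, per comparison, the 6 largest called changes in each direction at 10 CPM or more and the 3 largest under 10 CPM, the 5 most abundant members, paralogs and stalk proteins; for the difference between the responses they are the 6 largest in each direction, and for other lists up to 4 genes. Rpl5, Rpl7, Rpl11, Rpl15, Rps6, Zfp598 and the overlapping genes were chosen after their values were seen. Some results that this rule selects are not reported here. The members and lists were chosen with earlier results of these data known. The labels state no pairing by replicate number, and the main fit used none.

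Start windows are from RefSeq, GRCm38.p6, and unique words were computed on GENCODE M21 transcripts. Sequences on chromosome 18, which holds 2 members, are not printed.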

Additional observations from a re-analysis of the deposited data

Results flagged for a closer look

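The response to IFNb differed between genotypes in 28 ribosomal protein genes by the interaction term of the edgeR fit (adjusted p under 0.05), with 8 of them above 0 and 20 below. Of all genes 59.3% were called, 28.6% above and 30.7% below 0, so the 28 of 75 are fewer than the share over all genes. Values are log2 responses in Adar-null cells less those in control cells. Above 0 stood Rpl12 (2.02), Rpl10a (1.58), Rps12 (0.86), Rpl36 (0.50) and Rpl3 (0.33). Below 0 stood Rpl39 (-1.61), Rps4x (-1.24), Rpl37a (-1.24), Rps21 (-1.23), Rpl41 (-1.14), Rps15 (-1.10), Rpl36al (-0.42) and Rpl8 (-0.24). The calls of Rpl36, Rpl3 and Rpl36al ended with DESeq2 (adjusted p = 0.0759, 0.101 and 0.0704). Each of these calls also ended when some single libraries were left out. In those fits the adjusted p lay between 0.0513 and 0.108 for Rpl36 and between 0.0539 and 0.159 for Rpl3. For Rpl36al it lay between 0.0596 and 0.0897. Outside the set, Gnb2l1 also passed the test (0.12, adjusted p = 0.0361), but the call ended with library size alone, no filter, a stricter filter, Rn45s left out and a replicate block (adjusted p from 0.0527 to 0.0824). It also ended in 8 of the 12 fits that left out 1 library (without Adar-null IFNb replicate 2 or 3, Adar-null vehicle replicate 1 or 3, control IFNb replicate 2 or 3, or control vehicle replicate 1 or 2; adjusted p from 0.0586 to 0.232). Trim41 overlaps Gnb2l1 on the other strand, and its responses also differed (0.45, adjusted p = 8.15e-05). Lrsam1, which overlaps Rpl12 on the other strand, and Syngr1, which overlaps Rpl3, moved in the same libraries with values given above, and their part in these results was not tested.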

How the results depend on the processing

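Of 2645 values of named genes under alternatives, 2514 kept their side of the threshold, 116 lost the call and 15 gained one. With a call in either fit, 0 reversed direction. A change of sign with no call in either fit is counted among the 2514. Under library size alone the median of all genes with IFNb was -0.078 in Adar-null and -0.080 in control cells. In the main fit these medians were 0.012 and -0.005. Adar-null against control under vehicle gave 5 members higher with DESeq2 and 6 at an adjusted p under 0.01, against 11. The rises with IFNb in control cells numbered 3 with library size alone, 3 with DESeq2 and 2 at 0.01, against 7. Under IFNb, 13 members were higher in Adar-null cells at 0.01, against 21, and the median was -0.058 with a stricter filter and -0.11 over members with at least 50% unique words, against 0.08. The median with IFNb in Adar-null cells was -0.53 with the stricter filter, -0.49 at 10 CPM or more and -0.59 over members with at least 50% unique words, against -0.35; the last subsets were chosen after seeing the data. The stricter filter and these subsets summarise fewer members; for the other changes the cause was not tested. Differences of the responses above 0 numbered 4 with DESeq2 and 4 at 0.01, against 8. The summed level with IFNb was -0.40 in Adar-null and -0.33 in control cells with library size alone (log2 ratio), against -0.30 and -0.26.

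Leaving out each library in turn gave 4 to 19 members higher and 0 lower under vehicle (lower counts also 0 with DESeq2), 15 to 25 higher and 15 to 17 lower under IFNb, 7 to 9 rises and 40 to 44 falls in Adar-null cells, 2 to 7 rises and 31 to 36 falls in control cells, and 5 to 9 differences above and 16 to 20 below 0. Medians ranged from 0.16 to 0.22, -0.00 to 0.08, -0.41 to -0.34, -0.32 to -0.24 and -0.22 to -0.10 in the same order. With a replicate block 10 were higher under vehicle, and 21 were higher and 16 lower under IFNb. Rises and falls then numbered 8 and 43 in Adar-null cells and 7 and 35 in control cells, and differences above and below 0 numbered 8 and 19. The 18 correlations of same-numbered deviations lay between -0.10 and 0.06. They showed no shared shift of same-numbered libraries, but cannot exclude that these libraries were handled together. Depth limits members under 10 CPM, and the 10 members that were not tested have no call.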
